A study of Caenorhabditis elegans with 51 samples.

Results

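The *fat* genes *fat-1* to *fat-7* encode the 7 fatty acid desaturases of *Caenorhabditis elegans*, and their transcripts were examined in whole worms of 8 mutant strains. They were chosen by gene symbol alone, and all 7 were found among the 14033 genes of a table of 39 RNA sequencing libraries and among the 14596 genes of a table of 12 libraries. The first table holds 6 libraries each of *daf-2(e1370)*, *nuo-6(qm200)*, *isp-1(qm150)* and *clk-1(qm30)* worms, 3 each of *sod-1* worms, *prdx-2* worms and libraries labelled *ctl-1*, and 6 of wild-type N2 worms. The second holds 6 libraries of *sod-2(ok1030)* worms and 6 of wild-type worms of that experiment. The alleles of *sod-1*, *ctl-1* and *prdx-2* are not given in the sources used here. The *clk-1* gene acts in ubiquinone synthesis, *isp-1* and *nuo-6* encode subunits of respiratory complexes III and I, *daf-2* encodes the insulin-IGF1 receptor, and the other genes encode antioxidant enzymes (superoxide dismutases, a catalase and a peroxiredoxin). The study compared long-lived mitochondrial mutants with wild-type and *daf-2* worms. All worms were collected as pre-fertile young adults grown at 20°C on plates with OP50 bacteria, and each library is a biological replicate.

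Desaturases place double bonds in fatty acid chains. FAT-5, FAT-6 and FAT-7 are Δ9 desaturases and make monounsaturated fatty acids, FAT-5 from palmitic acid and FAT-6 and FAT-7 mainly from stearic acid, which gives oleic acid. FAT-2 is a Δ12 desaturase that converts oleic to linoleic acid, and FAT-1 (an omega-3 desaturase), FAT-3 (Δ6) and FAT-4 (Δ5) act after it, so that worms, unlike mammals, make polyunsaturated fatty acids without a dietary source. The nuclear hormone receptors NHR-49 and NHR-80, the Mediator subunit MDT-15 and the SREBP homolog SBP-1 are known activators of Δ9 desaturase genes, which are active mainly in the intestine, the main fat store of the worm.

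In the WBcel235 annotation *fat-1* (chromosome IV, 13315644 to 13318811) and *fat-2* (13323873 to 13326395) lie on the same strand. Between them are 5061 bases and no other protein-coding gene. *fat-4* (chromosome IV, 9799429 to 9802226) and *fat-3* (9803023 to 9806119) are also neighbours on one strand, 796 bases apart. *fat-6* lies alone on chromosome IV (11913692 to 11915687), and *fat-5* (17725004 to 17726818) and *fat-7* (7151353 to 7153146) lie far apart on chromosome V. *fat-6* and *fat-7* are close paralogs, so the counting of reads that match both is uncertain. The last 28 bases of *fat-5* overlap *twk-42*, a potassium channel gene on the other strand.

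Recovered reads per library were 21434437 to 28805205 in the 39 libraries and 22586580 to 33412986 in the 12 libraries. Each *fat* gene had at least 5 reads in every library, and the lowest counts were those of *fat-7*. The transcripts of *clk-1*, *sod-1*, *prdx-2* and *sod-2* were lower in every library of their own mutant than in any wild-type library. That of *ctl-1* was 2.38 ± 0.541 normalized CPM in the libraries labelled *ctl-1* and 2.29 ± 0.410 in wild-type worms (mean ± SD), so it does not check that label. Transcripts of the other mutated genes were not reduced in their strains.

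Divided by transcript length (the union of exons, in kb), the levels in wild-type worms ran from *fat-2* (478 ± 54.9 normalized CPM per kb, mean ± SD, n = 6) through *fat-6* (323 ± 80.9), *fat-1* (295 ± 24.5), *fat-4* (157 ± 16.3), *fat-3* (87.8 ± 12.6) and *fat-7* (70.0 ± 18.5) to *fat-5* (17.1 ± 9.15). The libraries of *fat-2* and *fat-6*, of *fat-6* and *fat-1*, and of *fat-3* and *fat-7* overlapped, and the other neighbours in this order did not. The order was the same in the wild-type worms of the *sod-2* experiment, with the same pairs overlapping.

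Desaturase genes were upregulated and downregulated side by side in *daf-2*, *nuo-6* and *isp-1* worms, and the Δ9 gene *fat-7* moved most. Changes were tested by limma on log2 of normalized CPM plus 0.5, which understates the change of low values, and a gene was called at a false discovery rate below 0.05 over all genes of the table. In *nuo-6* worms 5 of the 7 genes were upregulated, where 22.5% of all genes tested were, and 1 was downregulated, beside 14.0% of all genes. In *isp-1* worms 2 were upregulated and 2 downregulated, where 21.3% of all genes were called in either direction, and in *daf-2* worms 2 were upregulated (17.4%) and 1 downregulated (16.3%). The *clk-1* strain had 2 upregulated genes and no downregulated gene, where 8.27% of all genes were called in either direction. One gene, *fat-7*, was downregulated in *prdx-2* worms (6.51% of all genes) and in the libraries labelled *ctl-1* (1.57%).

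No *fat* gene was called in *sod-1* worms, where 2.57% of all genes were called and 0 of the 7 had an unadjusted p below 0.05, nor in *sod-2* worms, where 3.03% of all genes were called and 1 of the 7, *fat-7*, had an unadjusted p below 0.05. The edgeR quasi-likelihood test on recovered reads gave the same numbers of *fat* calls in all 8 comparisons, where it called 8.41% of all genes in *clk-1*, 21.9% in *isp-1*, 37.9% in *nuo-6*, 33.9% in *daf-2*, 1.60% in *sod-1*, 2.64% in *ctl-1*, 13.3% in *prdx-2* and 3.40% in *sod-2* libraries. The median log2 fold change of the 7 genes was 0.37 in *clk-1*, 0.28 in *isp-1*, 0.40 in *nuo-6* and -0.03 in *daf-2* worms. Over all genes tested it lay between -0.02 and 0.02 in each comparison with wild type. The 7 strains of the 39-library table share their wild-type libraries, so these comparisons are not independent of each other.

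**Figure D1:**
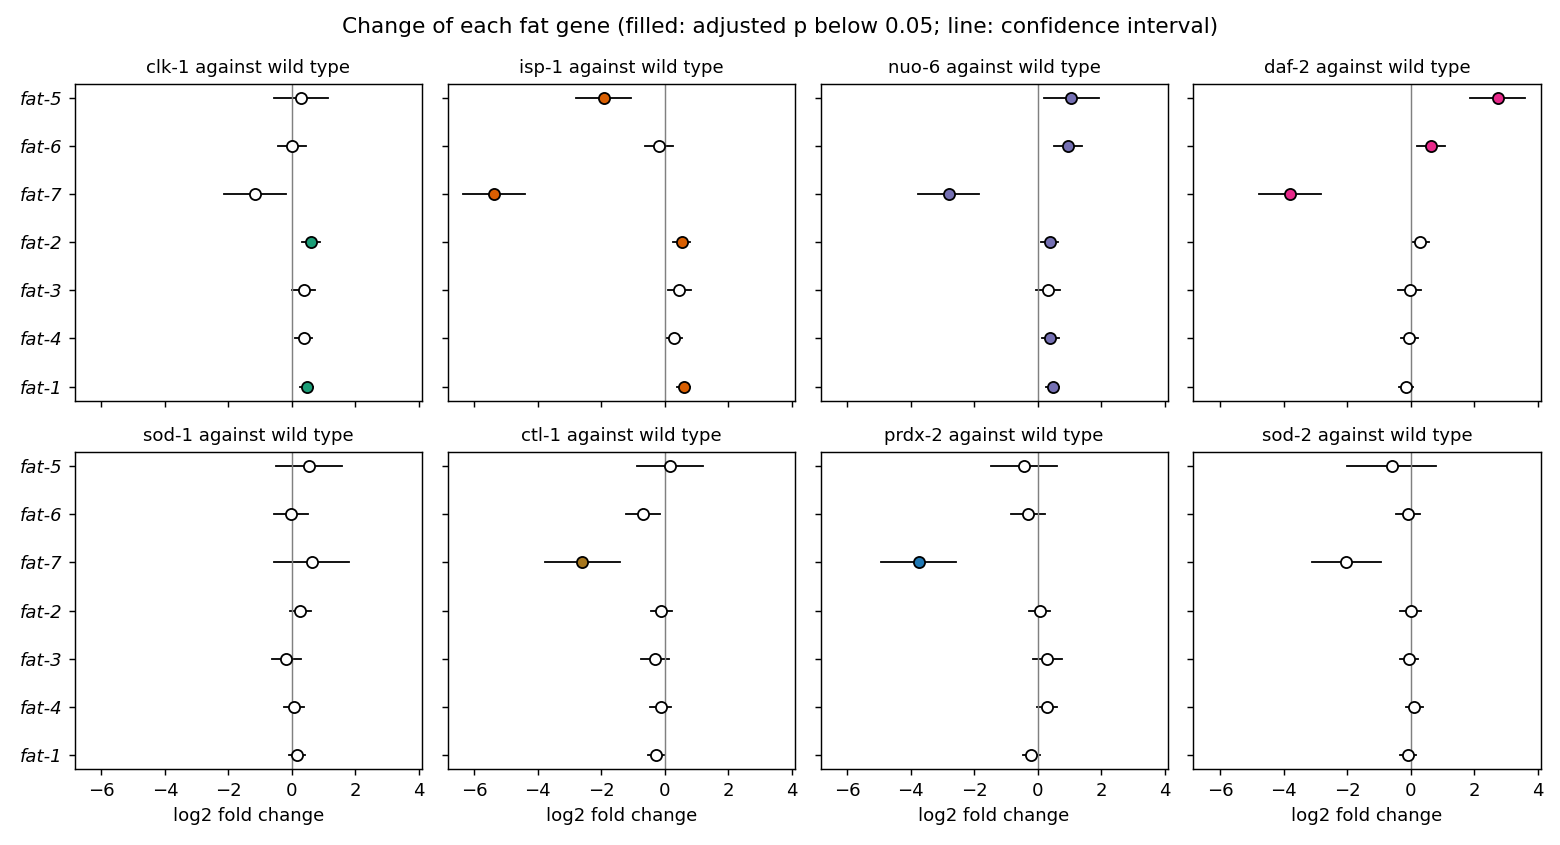
Log2 fold change (x axis) of each *fat* gene (y axis) in each of the 8 mutants against the wild-type worms of its own table, from the limma fit; lines are 95% confidence intervals and filled points have an adjusted p below 0.05. *fat-7* has the largest decreases, with -5.38 in *isp-1* worms, while *fat-5* ranges between -1.93 in *isp-1* and 2.74 in *daf-2* worms and *fat-1* to *fat-4* stay within 0.60 of 0.

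Among the Δ9 desaturases, *fat-7*, whose product acts on stearic acid, was strongly downregulated in *isp-1*, *daf-2*, *prdx-2* and *nuo-6* worms and in the libraries labelled *ctl-1*. In *isp-1* worms it ranged from 0.202 to 8.55 normalized CPM with a median of 1.20, against 59.7 to 111 with a median of 70.2 in wild-type worms. Every *isp-1* library lay far below every wild-type library, and replicate 1 stood above the other 5 *isp-1* libraries (at most 1.59). The means were 2.22 ± 3.14 in *isp-1* and 78.8 ± 20.9 in wild-type worms (SD, n = 6 each), a log2 fold change of -5.38 (SE 0.48, adjusted p = 9.7e-11). All measurements are of whole worms, in which fewer cells of a type and less RNA per cell cannot be told apart.

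In *daf-2* worms *fat-7* ranged from 2.59 to 8.81 normalized CPM (median 4.92), and no library approached the lowest wild-type value. The log2 fold change was -3.80 (SE 0.48, adjusted p = 9.7e-08). In *nuo-6* worms it ranged from 3.26 to 19.9 (median 15.6), with replicates 2 and 6 (4.23 and 3.26) apart from the other 4 libraries (13.3 to 19.9). These also lay below all wild-type libraries, with a log2 fold change of -2.81 (SE 0.48, adjusted p = 1.6e-05). The 3 *prdx-2* libraries held 10.8, 5.05 and 2.53 normalized CPM of *fat-7* (log2 fold change -3.75, SE 0.58, adjusted p = 3.2e-05). The 3 libraries labelled *ctl-1* held 19.3, 5.48 and 17.1 (log2 fold change -2.60, SE 0.58, adjusted p = 0.00805). Both groups lay entirely below wild type, but the call for *ctl-1* rested on replicate 2, without which the log2 fold change was -2.05 (adjusted p = 0.148).

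In *clk-1* worms *fat-7* ranged from 18.1 to 71.8 normalized CPM (median 30.2), with 5 of 6 libraries below all wild-type libraries. The log2 fold change of -1.16 (SE 0.48, adjusted p = 0.134) was not past the threshold in the fit of all strains and was past it when *clk-1* and wild-type worms were fitted alone (adjusted p = 0.0212). *sod-1* worms were the only strain whose mean lay above wild type. The 3 libraries held 74.5, 191 and 117 normalized CPM, and the difference was not past the threshold (log2 fold change 0.62, 95% interval -0.56 to 1.81, adjusted p = 0.719).

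In the 12-library table *fat-7* ranged from 4.47 to 45.4 normalized CPM in *sod-2* worms (median 25.3), against 47.1 to 112 in their wild-type worms (median 70.2). No *sod-2* library reached the lowest wild-type library, and replicates 1 and 5 (6.60 and 4.47) were lower than the others. The log2 fold change of -2.02 (SE 0.51, 95% interval -3.12 to -0.93) had an adjusted p of 0.0512, just outside the threshold, and edgeR gave 0.0763. DESeq2 on the same reads called it (adjusted p = 0.00528), as did the fit without *sod-2* replicate 2 (0.0450), 4 (0.0347) or 6 (0.0426).

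**Figure D2:**
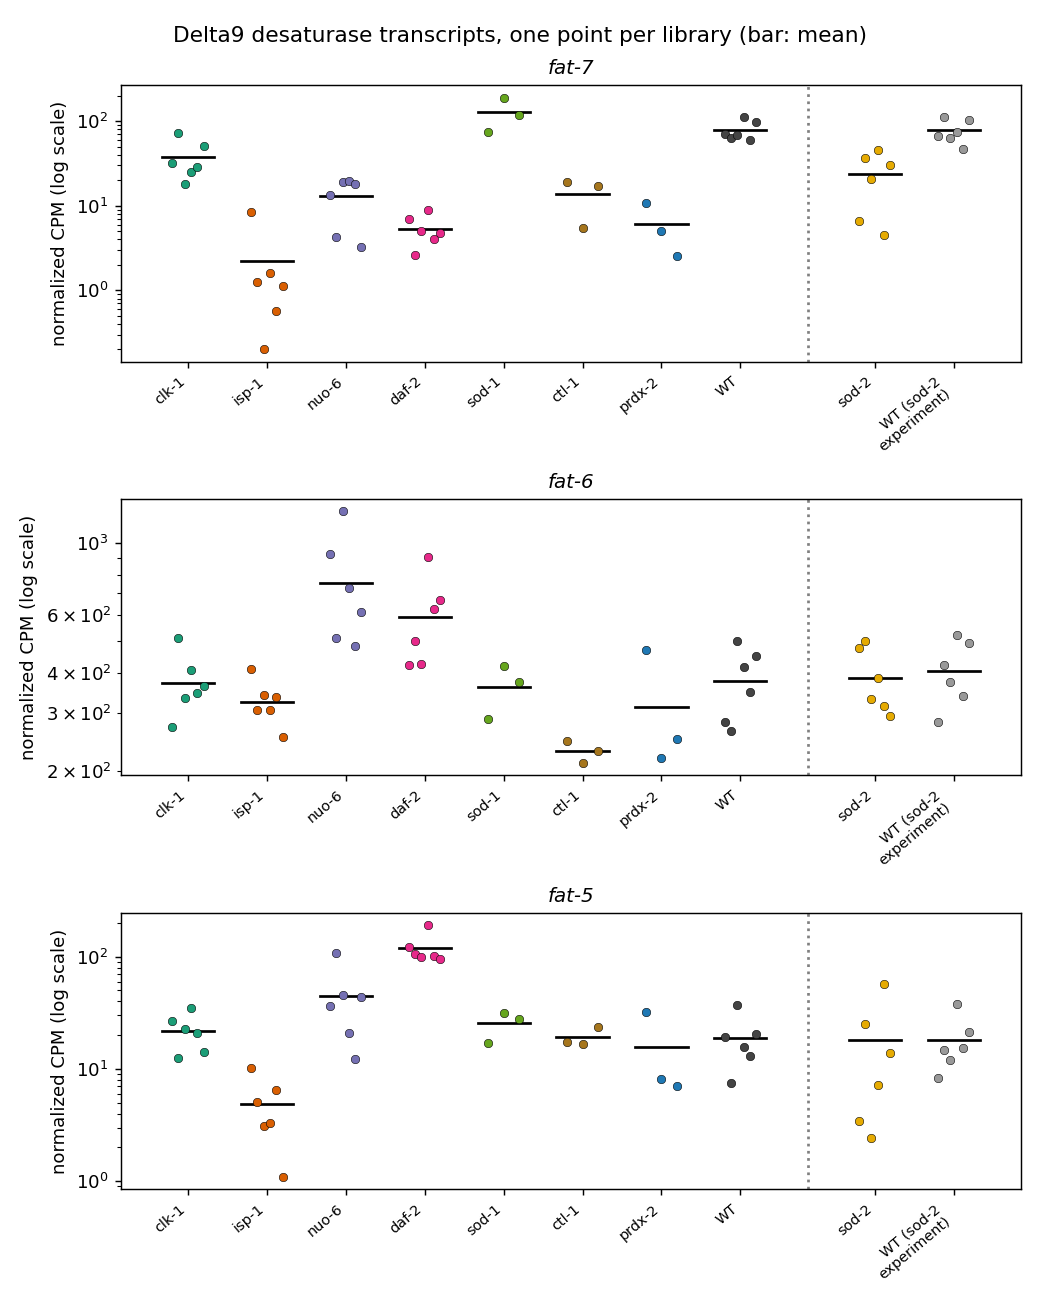
Normalized CPM (log scale, y axis) of *fat-7*, *fat-6* and *fat-5* in each library of each strain (x axis), with bars at the group means; the dotted line parts the 39-library table from the 12-library table. All *isp-1*, *nuo-6*, *daf-2*, *ctl-1*, *prdx-2* and *sod-2* points of *fat-7* lie below the wild-type points of their table, while the *fat-5* points of *daf-2* worms (94.97 to 191) lie above all wild-type points (7.55 to 37.1).

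*fat-5*, which encodes the palmitic acid desaturase, changed in opposite directions in *daf-2* and *isp-1* worms. In *daf-2* worms it ranged from 94.97 to 191 normalized CPM (median 104), against 7.55 to 37.1 in wild-type worms (median 17.5). The lowest *daf-2* library held more than 2 times the level of the highest wild-type library, and the log2 fold change was 2.74 (SE 0.42, adjusted p = 3.9e-06). In *isp-1* worms it ranged from 1.095 to 10.1 (median 4.21), with 5 of 6 libraries below all wild-type libraries. Here *fat-5* was downregulated (log2 fold change -1.93, SE 0.42, adjusted p = 0.00102).

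In *nuo-6* worms *fat-5* ranged from 12.3 to 108 normalized CPM (median 39.9), overlapping wild type, and passed the threshold narrowly (log2 fold change 1.06, SE 0.42, adjusted p = 0.0467). The call was lost without any one of 9 of the 12 libraries (*nuo-6* replicates 1, 2, 3 or 6 and wild-type replicates 7, 8, 10, 11 or 12), with log2 fold changes between 0.74 and 1.12 in those fits. Without replicate 2, the *nuo-6* library with 108, it was 0.74 (adjusted p = 0.162). It was also lost with *nuo-6* and wild type fitted alone (1.06, adjusted p = 0.0951), with DESeq2 size factors (adjusted p = 0.0554) and with a pseudocount of 0.1 (1.08, adjusted p = 0.0537). The means in the strains without a call were 21.8 ± 8.15 in *clk-1*, 25.5 ± 7.48 in *sod-1*, 19.2 ± 3.68 in *ctl-1* and 15.7 ± 14.1 in *prdx-2* worms, beside 18.9 ± 10.1 in wild-type worms. In *sod-2* worms *fat-5* averaged 18.2 ± 20.9, the same mean as in their wild-type worms (18.2 ± 10.5), but spread more widely (2.44 to 57.4 against 8.35 to 37.7).

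*fat-6*, the most abundant Δ9 desaturase transcript per length in every strain, was upregulated in *nuo-6* and *daf-2* worms, 2 of the strains in which its paralog *fat-7* was downregulated. In *nuo-6* worms it ranged from 482 to 1250 normalized CPM (median 670.3), against 264 to 500.0 in wild-type worms (median 382). Of the 6 *nuo-6* libraries only the lowest fell within the wild-type range, and the log2 fold change was 0.95 (SE 0.21, adjusted p = 0.00065). In *daf-2* worms it ranged from 423 to 908 (median 563) and overlapped wild type, with a log2 fold change of 0.63 (SE 0.21, adjusted p = 0.0209). This call was lost without wild-type replicate 7 (0.56, adjusted p = 0.0583) or 8 (0.54, adjusted p = 0.0631) or *daf-2* replicate 4 (0.50, adjusted p = 0.0743).

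In *isp-1* worms *fat-6* averaged 326 ± 51.6 normalized CPM, beside 377 ± 94.3 in wild-type worms, and the log2 fold change of -0.18 (95% interval -0.62 to 0.25) did not pass the test. The means of *clk-1* (372 ± 80.7), *sod-1* (361 ± 67.2) and *prdx-2* worms (313 ± 137) also differed from wild type by less than the test required. All 3 libraries labelled *ctl-1* (247, 211 and 230) lay below all wild-type libraries, without passing the threshold (log2 fold change -0.68, SE 0.26, adjusted p = 0.186). In *sod-2* worms the mean was 384 ± 86.9, beside 405 ± 91.9 in their wild-type worms.

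Differences between the long-lived strains were tested directly in 6 contrasts of the same fit. *nuo-6* worms held more of all 3 Δ9 transcripts than *isp-1* worms, where 17.2% of all genes were called, with log2 differences of 2.99 for *fat-5* (adjusted p = 1.1e-05), 1.14 for *fat-6* (adjusted p = 0.000531) and 2.57 for *fat-7* (adjusted p = 0.000421). *daf-2* worms also held more than *isp-1* worms (37.8% of all genes called), by 4.67 for *fat-5* (adjusted p = 9.0e-11), 0.82 for *fat-6* (adjusted p = 0.0030) and 1.58 for *fat-7* (adjusted p = 0.00883), the last of which edgeR did not call (adjusted p = 0.0703). Against *clk-1* worms, *isp-1* worms had 2 genes called (3.24% of all genes), *fat-7* at -4.22 (adjusted p = 1.1e-07) and *fat-5* at -2.21 (adjusted p = 0.000812). In the limma fit *isp-1* worms held less *fat-5* and *fat-7* than *clk-1*, *nuo-6* and *daf-2* worms each did.

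*nuo-6* worms differed from *clk-1* worms in *fat-6* (0.96, adjusted p = 0.00142) and *fat-7* (-1.65, adjusted p = 0.0121), where 20.1% of all genes were called. *daf-2* worms differed from *clk-1* worms in all 3 Δ9 genes (37.1% of all genes called), with log2 differences of 2.46 for *fat-5* (adjusted p = 2.4e-05), 0.64 for *fat-6* (adjusted p = 0.0185) and -2.64 for *fat-7* (adjusted p = 4.7e-05). The *fat-6* difference was lost without *clk-1* replicate 1 (0.55, adjusted p = 0.0501) or *daf-2* replicate 4 (0.51, adjusted p = 0.0675). Between *daf-2* and *nuo-6* worms the called Δ9 difference was that of *fat-5* (1.68 on the log2 scale, higher in *daf-2* worms, adjusted p = 0.0021, with 31.7% of all genes called). Their *fat-6* difference was -0.32 (95% interval -0.75 to 0.12) and their *fat-7* difference -0.995 (95% interval -1.96 to -0.03, adjusted p = 0.107). Without *nuo-6* replicate 2 or 6, the libraries with least *fat-7*, that difference passed the threshold (adjusted p = 0.0462 and 0.0355).

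**Figure D3:**
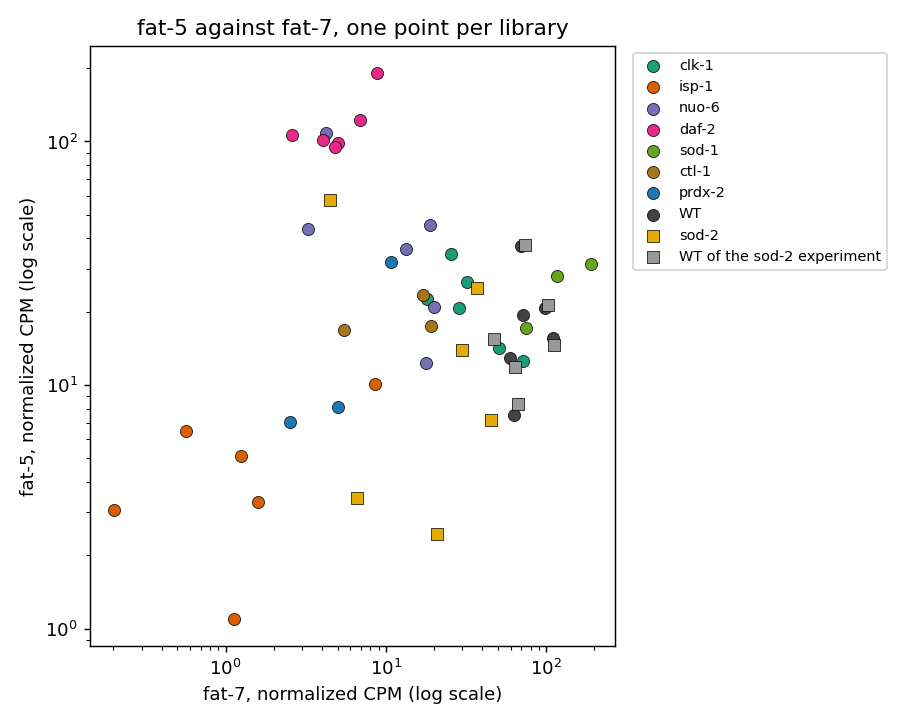
Normalized CPM of *fat-5* (y axis) against *fat-7* (x axis), both on log scales, with 1 point per library coloured by strain; squares are the libraries of the *sod-2* experiment. *daf-2* worms lie at the upper left (high *fat-5*, low *fat-7*), *isp-1* worms at the lower left (both low), and wild-type and *sod-1* worms at the right.

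Per length, the transcript pool of the 3 Δ9 desaturases consisted mostly of *fat-6* in every strain. The share of *fat-7* was 0.0609% to 2.06% in *isp-1*, 0.438% to 1.28% in *daf-2*, 0.507% to 3.61% in *nuo-6* and 4.97% to 12.4% in *clk-1* worms, against 11.7% to 21.0% in wild-type worms, and only the range of *clk-1* worms overlapped wild type. In *daf-2* worms *fat-5* took 12.98% to 23.2% of the pool, about the share that *fat-7* took in wild-type worms, and *fat-6* made up 75.6% to 86.4%. In *isp-1* worms *fat-6* alone made up 95.5% to 99.1%. In wild-type worms *fat-6* made up 75.0% to 82.2% of the pool and *fat-5* 2.36% to 6.42%.

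The summed Δ9 level per kb averaged 286 ± 48.9 normalized CPM in *isp-1*, 697 ± 252 in *nuo-6* and 620 ± 185 in *daf-2* worms, beside 410.3 ± 97.4 in wild-type worms (SD, n = 6 each). The *nuo-6* libraries (440.2 to 1130) and the *daf-2* libraries (459 to 959) overlapped the upper end of wild type (290 to 524), and the *isp-1* libraries (220 to 368) its lower end. In the libraries labelled *ctl-1* the sum was 201.5 to 245, below all wild-type libraries. In *sod-1* worms *fat-7* made up 20.1% to 30.4% of the pool. In *sod-2* worms its share was 1.22% to 10.7%, against 12.02% to 21.0% in their wild-type worms, which did not overlap.

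**Figure D4:**
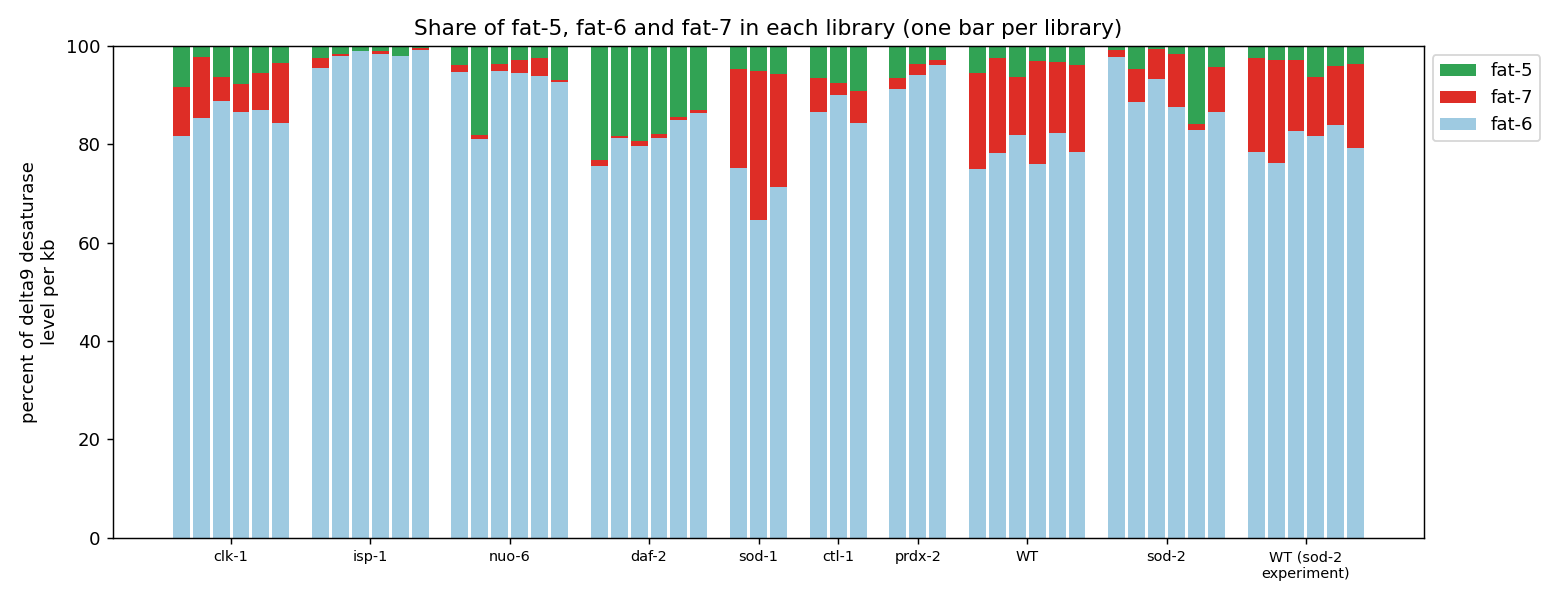
Share in percent (y axis) of *fat-5* (top), *fat-7* (middle) and *fat-6* (bottom) in the summed Δ9 desaturase level per kb, with 1 bar per library grouped by strain (x axis). *fat-7* makes up 11.7% to 21.0% in wild-type worms and under 4% in every *isp-1*, *nuo-6*, *daf-2* and *prdx-2* library.

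The desaturases that act after oleic acid changed less, and against wild type every call among them was upward and in a mitochondrial mutant. *fat-2*, whose Δ12 desaturase opens the polyunsaturated branch, ranged from 678 to 1213 normalized CPM in *clk-1* worms (median 907), from 763 to 961 in *isp-1* worms (median 874) and from 608 to 939 in *nuo-6* worms (median 771), against 521 to 701 in wild-type worms (median 583). All *isp-1* libraries lay above all wild-type libraries, while the highest wild-type library overlapped the lower *clk-1* and *nuo-6* libraries. The log2 fold changes were 0.60 in *clk-1* (SE 0.13, adjusted p = 0.0027), 0.53 in *isp-1* (SE 0.13, adjusted p = 0.00429) and 0.38 in *nuo-6* worms (SE 0.13, adjusted p = 0.0236). The *nuo-6* call was lost without wild-type replicate 8 (adjusted p = 0.0576) or *nuo-6* replicate 2 (0.0630) or 6 (0.0651). In *daf-2* worms *fat-2* averaged 748 ± 144 and the log2 fold change of 0.31 (adjusted p = 0.0753) passed the threshold only without *daf-2* replicate 1 (0.38, adjusted p = 0.0271). Tested directly, *fat-2* in *daf-2* worms was not called against *isp-1* (-0.22, adjusted p = 0.193) or *nuo-6* worms (-0.077, adjusted p = 0.694). Nor was it against *clk-1* worms (-0.29, adjusted p = 0.0838). That difference passed the threshold without *clk-1* replicate 2 (-0.35, adjusted p = 0.0497) or 6 (-0.37, adjusted p = 0.0297) or *daf-2* replicate 6 (-0.37, adjusted p = 0.0278).

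*fat-1*, the omega-3 desaturase gene, had the clearest separation among the polyunsaturated genes. It ranged from 485 to 694 normalized CPM in *clk-1*, from 563 to 708 in *isp-1* and from 493.2 to 716 in *nuo-6* worms, against 364 to 461 in wild-type worms. Every library of these 3 strains lay above every wild-type library. The log2 fold changes were 0.47 in *clk-1* (SE 0.10, adjusted p = 0.00235), 0.60 in *isp-1* (SE 0.10, adjusted p = 5.2e-05) and 0.47 in *nuo-6* worms (SE 0.10, adjusted p = 0.000446). In *daf-2* worms it ranged from 341 to 432 and did not pass the test (-0.15, 95% interval -0.36 to 0.06). The strains differed directly, with *fat-1* lower in *daf-2* worms than in *clk-1* worms (log2 difference -0.61, adjusted p = 1.7e-05), *isp-1* worms (-0.75, adjusted p = 8.1e-07) and *nuo-6* worms (-0.62, adjusted p = 1.3e-05).

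*fat-4*, the Δ5 desaturase gene, was upregulated in *nuo-6* worms, where it ranged from 241 to 408 normalized CPM (median 316), against 207 to 264 in wild-type worms (median 247). The log2 fold change of 0.40 (SE 0.13, adjusted p = 0.0145) was no longer called without *nuo-6* replicate 6 (0.33, adjusted p = 0.0510). In *clk-1* worms all 6 libraries (287 to 363) lay above wild type, but the adjusted p was 0.0751 (log2 fold change 0.37). It was 0.0188 when *clk-1* and wild-type worms were fitted alone. In *isp-1* worms *fat-4* ranged from 260 to 314, with 5 of 6 libraries above all wild-type libraries. The log2 fold change was 0.28 (adjusted p = 0.117), and it was past the threshold with *isp-1* and wild-type worms alone (adjusted p = 0.0177). *fat-4* was lower in *daf-2* worms than in *nuo-6* (-0.44, adjusted p = 0.00862) and *clk-1* worms (-0.40, adjusted p = 0.0139), and its difference from *isp-1* worms (-0.32, adjusted p = 0.0483) was not called by edgeR (adjusted p = 0.0960) and lost without any one of 10 of the 12 libraries.

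*fat-3*, the Δ6 desaturase gene next to *fat-4*, was not called in any strain against wild type. In *isp-1* worms it ranged from 164 to 226 normalized CPM, above every wild-type library (103 to 159), with a log2 fold change of 0.45 (SE 0.18, adjusted p = 0.0683). It was past the threshold when *isp-1* and wild-type worms were fitted alone (adjusted p = 0.00696). *daf-2* worms spread more widely (65.9 to 235.13) than any other strain. Their difference from *isp-1* worms (-0.49, adjusted p = 0.0319) was lost in edgeR (adjusted p = 0.0790) and without *isp-1* replicate 5 or *daf-2* replicate 1, 3, 4 or 6 (adjusted p between 0.0510 and 0.138).

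In the antioxidant mutants the 4 polyunsaturated genes gave no call. The log2 fold changes of *fat-1* to *fat-4* ranged from -0.17 to 0.27 in *sod-1* worms, from -0.31 to -0.12 in the libraries labelled *ctl-1*, from -0.20 to 0.30 in *prdx-2* worms and from -0.08 to 0.11 in *sod-2* worms. Only *fat-1* in the *ctl-1* libraries (-0.27, adjusted p = 0.299) had an unadjusted p below 0.05. In *prdx-2* worms *fat-7* fell with no called change in any other *fat* gene, and *fat-4* (311, 292 and 281 normalized CPM) lay above all wild-type libraries without passing the threshold (0.29, adjusted p = 0.242).

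**Figure D5:**
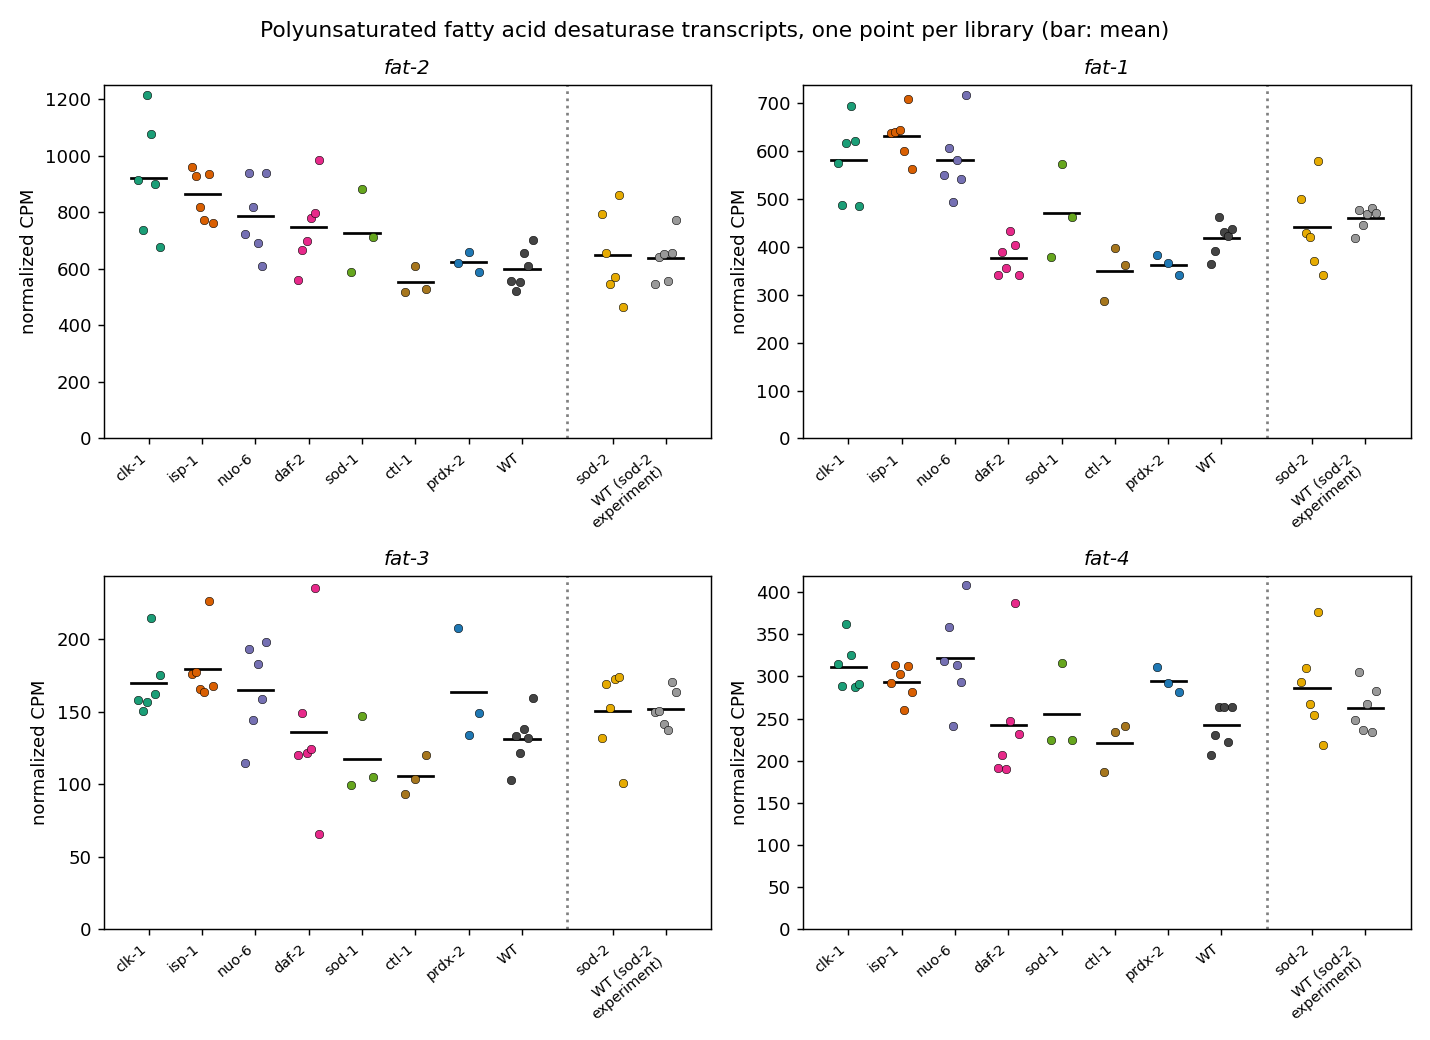
Normalized CPM (y axis, from 0) of *fat-2*, *fat-1*, *fat-3* and *fat-4* in each library of each strain (x axis), with bars at the group means; the dotted line parts the 39-library table from the 12-library table. For *fat-1* all points of the mitochondrial mutants *nuo-6*, *isp-1* and *clk-1* (485 to 716) lie above the wild-type points (364 to 461), and the *daf-2* points (341 to 432) do not.

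A list of 12 genes was chosen as regulators of desaturase transcription, and the part of each was not tested. In *nuo-6* worms none of them was downregulated and 5 were upregulated, where 22.5% of all genes were upregulated. These were *pqm-1*, a zinc finger factor (log2 fold change 1.34, adjusted p = 0.000283), *sbp-1* (0.96, adjusted p = 2.0e-06), *skn-1* (0.55, adjusted p = 0.0307), *nhr-64* (0.44, adjusted p = 0.00169) and *nhr-49* (0.32, adjusted p = 0.0246). *sbp-1* ranged from 58.3 to 142 normalized CPM in *nuo-6* worms, above all wild-type libraries (33.4 to 49.4). One library, *nuo-6* replicate 3, was the highest of its group in each of the 5 genes and in the summed level of the list (2081 normalized CPM, against 1054 to 1130 in the other *nuo-6* and 948 to 1093 in the wild-type libraries). Without it 3 genes stayed called, *pqm-1* (1.03, adjusted p = 0.00109), *sbp-1* (0.81, adjusted p = 3.6e-06) and *nhr-64* (0.36, adjusted p = 0.00786), while *skn-1* (0.29, adjusted p = 0.148) and *nhr-49* (0.19, adjusted p = 0.115) did not. The *skn-1* call was also lost without *nuo-6* replicate 4 or wild-type replicate 11 or 12, and that of *nhr-49* without wild-type replicate 8 or 9. In *daf-2* worms 4 were upregulated, *pqm-1* (1.34, adjusted p = 0.000311), *nhr-64* (0.63, adjusted p = 2.4e-05), *nhr-49* (0.37, adjusted p = 0.0110) and *mdt-15* (0.32, adjusted p = 0.0355), and 2 were downregulated, *nhr-13* (-0.43, adjusted p = 0.0307) and *iglr-2* (-0.31, adjusted p = 0.0080). Over all genes, 17.4% were upregulated and 16.3% downregulated in *daf-2* worms. Without single libraries the *mdt-15* call was lost in 8 of the 12 fits (*daf-2* replicates 3, 5 or 6 and wild-type replicates 7, 8, 9, 11 or 12) and that of *nhr-13* in 5 (*daf-2* replicate 6 and wild-type replicates 7, 8, 11 or 12). *nhr-80* was upregulated in both strains without wild-type replicate 10 and in *daf-2* worms without *daf-2* replicate 6, where *paqr-2* was downregulated, and *daf-16* was upregulated without *daf-2* replicate 1.

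In *isp-1* worms, in which *fat-5* and *fat-7* were downregulated, the 2 called regulators were *iglr-2* (-0.27, adjusted p = 0.0322) and *paqr-2* (-0.22, adjusted p = 0.0420), which encode partners known to sense membrane fluidity. Neither was called without *isp-1* replicate 1, 2, 3 or 5 or wild-type replicate 7, 10 or 11, and *paqr-2* also not without *isp-1* replicate 6 or wild-type replicate 8 or 9. These fits without single libraries were added after the values were seen. *nhr-49* averaged 98.4 ± 6.75 normalized CPM in *isp-1* and 88.8 ± 8.09 in wild-type worms, and *nhr-80* 14.4 ± 1.16 and 16.3 ± 3.95, with no call for either. Over all genes, 21.3% were called in *isp-1* worms in either direction. The median log2 fold change of the 12 genes was 0.12 in *isp-1*, 0.19 in *nuo-6* and 0.31 in *daf-2* worms. None of the 12 was called by limma or edgeR in *clk-1*, *sod-1*, *ctl-1*, *prdx-2* or *sod-2* libraries, where 1, 2, 1, 1 and 3 of them had an unadjusted p below 0.05.

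Other known targets of NHR-49 included genes called in each direction. Over all genes tested, 17.4% were upregulated and 16.3% downregulated in *daf-2*, 22.5% and 14.0% in *nuo-6*, and 6.51% downregulated in *prdx-2* worms. In either direction 21.3% were called in *isp-1*, 8.27% in *clk-1* and 3.03% in *sod-2* worms. *acs-2*, an acyl-CoA synthetase gene of mitochondrial fatty acid oxidation, ranged from 165 to 621 normalized CPM in *clk-1*, from 173 to 548 in *isp-1*, from 363 to 1042 in *nuo-6* and from 2.79 to 4.42 in *prdx-2* worms, against 15.9 to 60.0 in wild-type worms. It was upregulated in *clk-1* (log2 fold change 3.40, adjusted p = 0.000238), *isp-1* (3.31, adjusted p = 0.000157) and *nuo-6* worms (4.61, adjusted p = 3.8e-07), downregulated in *prdx-2* worms (-2.82, adjusted p = 0.0111) and not called in *daf-2* worms (0.24, adjusted p = 0.792) or the *ctl-1* libraries (-0.058, adjusted p = 0.983). Of these strains, *fat-7* was downregulated in all but *clk-1* worms. *acdh-2*, an acyl-CoA dehydrogenase gene, was downregulated in *isp-1* (-3.86, adjusted p = 0.00023) and *daf-2* worms (-5.30, adjusted p = 7.8e-07). *icl-1*, the glyoxylate cycle gene, was upregulated in *isp-1* (1.30, adjusted p = 0.000288), *nuo-6* (1.74, adjusted p = 1.7e-06) and *daf-2* worms (1.30, adjusted p = 0.00013). The paper names *icl-1* as a target of the transcription factor DAF-16 and reports it upregulated in *clk-1* worms as well. Of the 6 other NHR-49 targets in the table, 3 were upregulated and 1 was downregulated in *isp-1* worms. The counts were 3 and 0 in *nuo-6*, 1 and 1 in *daf-2*, 2 and 0 in *clk-1*, and 0 and 2 in *prdx-2* worms.

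The genes of fatty acid synthesis and elongation, which supply the substrates of the desaturases, gave few calls in the long-lived strains. Of 14 genes, 2 were downregulated in *isp-1* worms, the elongase genes *elo-9* (-0.75, adjusted p = 0.0185) and *elo-1* (-0.48, adjusted p = 0.0160). Over all genes tested, 21.3% were called in *isp-1* worms in either direction. Upregulated and downregulated shares were 22.5% and 14.0% in *nuo-6* and 17.4% and 16.3% in *daf-2* worms. In *nuo-6* worms *elo-9* was downregulated (-0.76, adjusted p = 0.0097) and *hpo-8*, a hydroxyacyl-CoA dehydratase gene, upregulated (0.47, adjusted p = 0.000844), and by limma and edgeR no gene was called in *daf-2* worms. Of the 14, 7 had an unadjusted p below 0.05 in *isp-1*, 7 in *nuo-6* and 2 in *daf-2* worms, and the list's median log2 fold changes were -0.24, -0.30 and -0.059. In *prdx-2* worms 9 of the 14 were downregulated, beside 6.51% of all genes. The median log2 fold change in *prdx-2* worms was -0.90 over the list and -0.01 over all genes tested. Of 3 electron donor genes of the desaturases, *cytb-5.1* was downregulated in *isp-1* worms (-0.48, adjusted p = 0.0290). *hpo-19* was upregulated in *nuo-6* worms (0.54, adjusted p = 0.0014). In *prdx-2* worms 1 of the 3 was upregulated and 1 downregulated, by limma and by edgeR, and all 3 had an unadjusted p below 0.05. There edgeR called 13.3% of all genes in either direction.

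Of 8 genes of triglyceride synthesis and storage, which use the fatty acids made, 4 were upregulated and 1 was downregulated in *daf-2* worms. The counts were 2 and 2 in *nuo-6* worms and 0 and 3 in *isp-1* worms. Over all genes tested, 17.4% were upregulated and 16.3% downregulated in *daf-2* worms, and 22.5% and 14.0% in *nuo-6* worms. In *isp-1* worms 21.3% were called in either direction. The largest calls were *fitm-2*, a lipid droplet gene (-0.73, adjusted p = 2.9e-05), *plin-1*, the perilipin gene (0.72, adjusted p = 0.0096), and the acyltransferase gene *acl-5* (0.60, adjusted p = 0.000147) in *daf-2* worms. In *nuo-6* worms *dgat-2*, which encodes the enzyme of the last step of triglyceride synthesis, was upregulated (1.06, adjusted p = 0.0263). In *isp-1* worms *acs-22* (-0.60, adjusted p = 0.0076), *fitm-2* (-0.52, adjusted p = 0.0035) and *lpin-1* (-0.26, adjusted p = 0.0480) were downregulated.

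Of 6 intestinal markers (*elt-2*, *ges-1*, *ifb-2*, *act-5*, *pept-1* and *asp-1*), none was called in *isp-1*, *nuo-6*, *clk-1*, *sod-1*, *ctl-1* or *sod-2* libraries by limma, with 0, 1, 0, 0, 3 and 1 at an unadjusted p below 0.05, while *ges-1* was upregulated in *daf-2* (0.45, adjusted p = 0.0130) and *act-5* downregulated in *prdx-2* worms (-1.51, adjusted p = 0.00294). Their summed level was 3883 to 5432 normalized CPM in *isp-1*, 4623 to 7072 in *nuo-6* and 3786 to 7862 in *daf-2* worms, against 3949 to 8708 in wild-type worms, and these ranges overlapped. Vitellogenins, yolk proteins of the adult intestine, were lower in several strains. Of 6 vitellogenin genes, 4 were downregulated in *daf-2*, 4 in the *ctl-1*, 3 in the *prdx-2*, 1 in the *isp-1* (*vit-3*) and 1 in the *sod-2* libraries (*vit-3*), and by limma none in *clk-1*, *nuo-6* or *sod-1* worms, where 0 had an unadjusted p below 0.05. By edgeR the counts were 2 in the *ctl-1* and 0 in the *sod-2* libraries and the same in the other strains, and all 6 had an unadjusted p below 0.05 in *daf-2*, *ctl-1* and *sod-2* libraries. All 3 pharyngeal markers (*myo-1*, *myo-2* and *tnt-4*) were downregulated in *isp-1* (log2 fold changes -0.63 to -0.53) and in *daf-2* worms (-0.61 to -0.55). Of 5 germline markers, 3 were downregulated in *nuo-6* (all 5 at an unadjusted p below 0.05), 2 in *daf-2*, 1 in *isp-1* and 1 in *prdx-2* worms, and their summed level was 1071 to 1493 normalized CPM in *nuo-6* and 1478 to 1701 in *daf-2* worms, against 1706 to 2343 in wild-type worms. Of 8 sperm markers, 3 were downregulated in *isp-1* worms, and of 8 oocyte and eggshell markers 2 in *nuo-6* and 2 in *daf-2* worms. Of 4 body wall muscle markers, 3 were downregulated in *prdx-2* worms, with a summed level of 7817 to 8353 against 8821 to 15716 in wild-type worms. In the other strains and the epidermal and neuronal lists, at most 1 marker of a list was called in a direction by limma. No sperm marker was called in *sod-1* worms, but 7 of the 8 had an unadjusted p below 0.05. Their summed level was 373 to 463, against 162 to 339 in wild-type worms. Among all genes tested, 14.0% were downregulated in *nuo-6*, 16.3% in *daf-2*, 6.51% in *prdx-2* and 1.57% in *ctl-1* libraries. In either direction 21.3% were called in *isp-1* and 3.03% in *sod-2* worms. The markers named here were picked out after their values were seen, and the part of cell composition in the *fat* results was not tested.

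The summed vitellogenin level was 3821 to 52539 normalized CPM in *daf-2*, 5481 to 15835 in *ctl-1*, 8738 to 29299 in *prdx-2*, 9006 to 97075 in *nuo-6* and 23098 to 65621 in *isp-1* libraries, against 24959 to 44581 in wild-type worms. *fat-7* was lowest in *isp-1* worms, whose vitellogenin sums overlapped wild type. In *sod-2* worms the sum was 1022 to 26054, against 20789 to 46213 in their wild-type worms. The *sod-2* libraries with least *fat-7*, replicates 5 and 1, had sums of 5108 and 25166, and replicate 2, with the smallest sum, had 37.0 normalized CPM of *fat-7*. In *nuo-6* worms replicate 2 had both the smallest sum (9006) and the highest *fat-5* level (108), and *fat-7* in replicate 6 (3.26) was lower still at a sum of 66178. These libraries were picked out after their values were seen, and a relation between vitellogenin and *fat* levels was not tested.

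Over the 39 libraries, the genes whose log2 levels ran most like *fat-7* were *rpl-25.2*, a ribosomal protein gene (Pearson r = 0.85), *eif-1*, a translation initiation factor gene (r = 0.80), and D2062.6 (r = 0.78). In the other 12 libraries the same pairs gave r = 0.755, 0.722 and 0.166. For *fat-6* they were ZK355.2 (r = 0.833), Y47G6A.7 (r = 0.804) and *dhs-30* (r = 0.792), with r = 0.461, 0.602 and -0.215 in the 12 libraries, and for *fat-5* they were *skr-4* (r = 0.815), F42F12.3 (r = 0.78) and *clec-8* (r = 0.747), with r = 0.40, 0.253 and 0.591. These values describe libraries that share strains, depth and normalization, and carry no test.

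Among the *fat* genes themselves, after subtracting each group's mean, *fat-1* ran with *fat-2* (r = 0.618 over 39 libraries and 0.87 over the 12) and with *fat-4* (r = 0.681 and 0.828). *fat-3* ran with its neighbour *fat-4* at r = 0.585 and 0.542. *fat-7* gave r = 0.468 and 0.198 with *fat-6* and 0.0761 and -0.13 with *fat-5*. Its values were negative with *fat-1* (r = -0.277 and -0.79), *fat-2* (-0.227 and -0.611), *fat-3* (-0.0782 and -0.0691) and *fat-4* (-0.232 and -0.4).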

How the data were processed

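RNA of whole pre-fertile young adult worms was sequenced. The authors aligned reads to WBcel235 with STAR 2.5.2b, counted them per gene and normalized them with edgeR 3.20.1. The deposited values are a signal, normalized CPM. In every library 99.97% to 100% of genes were whole multiples of 1 read (tolerance 0.05 read), so reads were recovered and tested with edgeR, which called 224 genes (*sod-1*) to 5312 genes (*nuo-6*) against wild type. A further deposited table gives an unscaled count for each gene in those 12 libraries. How it was made is not stated, and it served only as an alternative for *sod-2*, where the design had assumed normalized values.

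Mutants were tested against wild-type worms of the same table by limma 3.58.1 (lmFit, eBayes with trend, two-sided) in R 4.3.3 on log2 of the value plus 0.5, with all groups of a table in one fit and no covariates. Calls used a Benjamini-Hochberg false discovery rate below 0.05 over all genes of the table. Alternatives were edgeR 4.0.16, DESeq2 1.42.0 and its size factors, pseudocounts of 0.1 and 1, a mean of at least 1, each mutant fitted with wild type alone, a false discovery rate below 0.01, replicate blocks and leaving out each replicate. Levels were divided by exon length from the Ensembl annotation of the same build, in a later release than that of the authors. The fits recovered most of the largest changes put into simulated data, in which all genes had the same spread. That simulation set no requirement for smaller changes and did not cover the wider spread of *fat-5* and *fat-7* between replicates.

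Named are the 7 *fat* genes, any called regulator, at most the 3 largest calls of each other list in *daf-2*, *nuo-6* and *isp-1* worms, and the 3 genes most like *fat-5*, *fat-6* and *fat-7*. The genes and lists were chosen with earlier results of these data known. The labels do not say how the replicates of a strain were separated beyond calling them biological replicates. Counting error (the inverse square root of the reads) of the lowest library was below the coefficient of variation between replicates in all 70 pairs of a *fat* gene and a group, and was 44.7% for *fat-7* in *isp-1* worms (5 reads), beside a coefficient of variation of 142%.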

Additional observations from a re-analysis of the deposited data

Results flagged for a closer look

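Each *fat* gene was examined in every group of 6 for a library far from the rest, by the gap to its nearest neighbour over the range of the group (Dixon's ratio). Of 49 such groups 5 held one. The chance rate of about 1 in 20 holds for normally distributed values. The ratio was taken on normalized CPM and not on log2, so the number cannot be set against that rate. *fat-7* in *isp-1* replicate 1 was 8.55 normalized CPM. *fat-5* was 108 in *nuo-6* replicate 2 and 191 in *daf-2* replicate 4. *fat-3* in *isp-1* replicate 5 was 226, and *fat-4* in *daf-2* replicate 5 was 386. All 5 were the highest of their group, and the reasons were not tested.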

How the results depend on the processing

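Of the changes of single genes and contrasts, 679 alternative values (fits without single libraries apart) kept their direction and side of the threshold, 8 passed it in addition, 14 lost it and 6 changed sign, all of these close to 0 and none called. These were *fat-3* in *daf-2* worms (0.054 by edgeR and 0.042 by DESeq2), *fat-4* in *daf-2* worms (0.0026 by edgeR) and *fat-2* in *sod-2* worms (-0.00082 by edgeR, -0.00075 by DESeq2 and -0.019 with DESeq2 size factors). The causes were not tested. The number of called *fat* genes changed by over 1.5 times in *clk-1* worms fitted with wild type alone (4, with fewer samples in the fit), in *nuo-6* worms at a false discovery rate below 0.01 (3, a stricter threshold) and in *sod-2* worms by DESeq2 (1), with a pseudocount of 1 (1) and with a replicate block (1). In each *sod-2* case the gene was *fat-7*, at an adjusted p of 0.0494 with the pseudocount of 1. On the earlier count table its log2 fold change by edgeR was -1.69 (adjusted p = 0.105).

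Leaving out single libraries gave 3 to 6 called genes in *nuo-6* worms (3 without *nuo-6* replicate 6), 0 to 1 in the *ctl-1* libraries (0 without replicate 2) and 0 to 1 in *sod-2* worms (1 without *sod-2* replicate 2, 4 or 6). Changes near 0 that turned sign ranged against wild type from -0.10 to 0.084 (*fat-6*, *clk-1*), -0.21 to 0.16 (*fat-3*, *daf-2*), -0.18 to 0.023 (*fat-4*, *daf-2*), -0.10 to 0.15 (*fat-4*, *sod-1*), -0.16 to 0.11 (*fat-6*, *sod-1*), -0.053 to 0.39 (*fat-5*, *ctl-1*), -0.085 to 0.092 (*fat-2*, *sod-2*), -0.088 to 0.069 (*fat-3*, *sod-2*) and -0.17 to 0.0039 (*fat-6*, *sod-2*). Between strains they ranged from -0.15 to 0.017 (*fat-2*, *isp-1* and *clk-1*), -0.056 to 0.060, -0.11 to 0.049 and -0.038 to 0.11 (*fat-1*, *fat-3* and *fat-4*, *nuo-6* and *clk-1*) and -0.16 to 0.0022 (*fat-2*, *daf-2* and *nuo-6*).

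Wild-type and *sod-2* libraries share replicate numbers, and the values did not show that the numbers pair them. Deviations of same-numbered libraries correlated between -0.139 and 0.731, and 1 of 6 *sod-2* libraries correlated best with its own number. So few libraries cannot exclude a pairing. With a replicate block *fat-7* in *sod-2* worms had a log2 fold change of -2.02 (adjusted p = 0.0193). Among the long-lived strains alone, a block on the number left *fat-3* (adjusted p = 0.0580) and *fat-4* (0.103) uncalled between *daf-2* and *isp-1* worms, and so did the same fit without the block (0.0555 and 0.0748), which was chosen after seeing the data.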
